A study of Mus musculus with 8 samples.

Results

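The collagen genes are those whose symbol in the deposited tables reads Col, a number, a and a number. Of 23420 gene symbols in the tables, 44 met this rule. Their expression was read from RNA-seq counts of mouse embryonic fibroblasts of a C57BL6/N background that expressed the adenoviral oncoprotein E1A together with activated Ras (HRasV12). Of 8 libraries, 4 came from Neat1-/- cells, here called Neat1 null, and 4 from wild-type cells, and both groups carried both oncogenes. The labels do not say how the oncogenes were introduced, from which promoter they were driven, or how many embryos or cultures stand behind each group. The p-values therefore measure the spread between these libraries, which may be technical in part. The comparison asks which collagen transcripts differ between transformed fibroblasts without and with Neat1, the long noncoding RNA around which nuclear paraspeckles assemble. In bulk samples, fewer cells that express a gene and less RNA per cell cannot be told apart.

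Collagens are the main structural proteins of the extracellular matrix. Each is a triple helix of chains with a repeating sequence rich in glycine, and the gene names give the collagen type and the chain. Fibrillar collagens form the cable-like fibrils of connective tissue. Basement membrane collagen of type IV forms sheet-like networks. FACIT collagens, whose name stands for fibril-associated collagens with interrupted triple helices, sit on the surface of fibrils, and type VI collagen forms beaded filaments around cells. Fibroblasts are known as a chief source of the fibrillar types I and III.

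Libraries held 19651035 to 38950207 counts assigned to genes in the Neat1 null group and 31651625 to 37069334 in the wild-type group. Neat1 itself had 6.92, 11.3, 7.90 and 6.12 CPM (counts per 1000000 counts, with totals scaled between libraries) in Neat1 null libraries 1 to 4, against 138, 588, 753 and 1320 CPM in wild-type libraries 1 to 4. Neat1 null library 1 stood apart: ribosomal protein genes took 25.5% of its gene counts. Their share was 8.44% to 15.1% in Neat1 null libraries 2 to 4 and at most 7.06% in any wild-type library. Rn45s took 5.23% of the gene counts of Neat1 null library 1 and at most 0.939% in any other library. The factors that scaled the totals (TMM) were 0.567 and 0.728 in Neat1 null libraries 1 and 3. They were 1.053 and 1.015 in Neat1 null libraries 2 and 4, and 1.078 to 1.325 in wild-type libraries. By Xist and 4 Y-linked genes, Neat1 null library 3 and the 4 wild-type libraries were female and the other Neat1 null libraries male, so sex and genotype are largely confounded. Fibroblast markers were present in both groups, with Vim at 1891 to 3263 CPM in Neat1 null and 1233 to 2184 CPM in wild-type libraries. Of the other listed fibroblast markers, Twist1 had 22.2 to 70.4 CPM in Neat1 null and 57.5 to 60.5 CPM in wild-type libraries and Prrx1 had 18.2 to 56.5 CPM in Neat1 null and 44.3 to 125 CPM in wild-type libraries, while Fap and Tcf21 were at most 1.53 CPM in any library. Some matrix genes of connective tissue outside that list, chosen after their values were seen, were low: Dcn, a proteoglycan that binds collagen fibrils, was at most 0.898 CPM in Neat1 null and 0.513 CPM in wild-type libraries, and Postn and Lum were at most 0.147 CPM in Neat1 null and 0.0795 CPM in wild-type libraries. Others were high. Fn1 had 431 to 1389 CPM in Neat1 null and 505 to 918 CPM in wild-type libraries. Sparc had 399 to 609 CPM in Neat1 null and 133 to 371 CPM in wild-type libraries. Epcam, an epithelial marker, was also detected, at 34.0 to 64.6 CPM in Neat1 null and 26.9 to 57.1 CPM in wild-type libraries.

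The promoter letters are shown for the 3 collagen genes called lower in Neat1 null libraries whose window held no annotated exon, and for Col5a1, which was not called. They are RefSeq sequences of build GRCm38.p6 and run 5′ to 3′ over 220 bases, ending 30 bases before the annotated start, which for Col25a1 lies inside the gene, downstream of its outermost annotated start. Capitals mark the GC box GGGCGG and the CCAAT box CCAAT on either strand, and no marked motif overlapped another.
Col18a1 (chr10:77166561-77166780, minus strand): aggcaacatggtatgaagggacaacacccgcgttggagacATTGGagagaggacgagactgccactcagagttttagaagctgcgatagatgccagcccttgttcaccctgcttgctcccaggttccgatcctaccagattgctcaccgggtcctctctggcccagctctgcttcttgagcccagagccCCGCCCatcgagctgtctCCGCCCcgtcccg
Col11a1 (chr3:114030290-114030509, plus strand): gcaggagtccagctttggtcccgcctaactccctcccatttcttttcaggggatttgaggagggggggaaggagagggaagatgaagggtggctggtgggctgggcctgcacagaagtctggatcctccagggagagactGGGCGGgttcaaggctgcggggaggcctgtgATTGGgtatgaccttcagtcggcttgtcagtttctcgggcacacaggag
Col25a1 (chr3:130180595-130180814, plus strand): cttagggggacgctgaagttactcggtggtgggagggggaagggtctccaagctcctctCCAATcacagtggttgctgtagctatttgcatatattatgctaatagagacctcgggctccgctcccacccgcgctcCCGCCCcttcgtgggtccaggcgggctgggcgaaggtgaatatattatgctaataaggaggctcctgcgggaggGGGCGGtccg
Col5a1 (chr2:27886175-27886394, plus strand): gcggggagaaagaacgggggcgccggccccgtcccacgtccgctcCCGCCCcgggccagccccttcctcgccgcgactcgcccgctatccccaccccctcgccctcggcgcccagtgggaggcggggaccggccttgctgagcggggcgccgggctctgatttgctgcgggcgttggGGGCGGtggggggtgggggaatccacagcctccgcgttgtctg
The Col18a1, Col11a1 and Col25a1 windows each held both motifs, and the Col5a1 window held the GC box and no CCAAT box. This did not divide called from other collagens: Col5a3 and Col7a1, not called, held both motifs, and the called Col6a1 and Col20a1 held neither. Of the collagen genes, 35 had an entry in the RefSeq promoter table, 38 entries in all. A GC box was in 47.4% of these windows and in 28.5% of 32851 windows of the same length over all genes. A CCAAT box was in 26.3% of the collagen windows and 31% of all windows, the TATA box TATAAA in 10.5% and 9.95%, and the AP-1 site TGANTCA in 2.63% and 6.12%, in the same order. All motifs were searched on both strands. These are matches of letters, and no binding was measured. Col18a1 has a further annotated start whose window held none of these motifs, and the counts do not separate the starts.

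Collagen transcripts were scarce in all libraries and came from a few genes. They made up 0.0695%, 0.0715%, 0.0774% and 0.0811% of gene counts in Neat1 null libraries 1 to 4, against 0.0974%, 0.159%, 0.297% and 0.263% in wild-type libraries 1 to 4. The groups did not overlap on this measure, with means of 0.0749 ± 0.00536% in Neat1 null and 0.204 ± 0.0924% in wild-type libraries (SD, n = 4 each). The separation depended on the scaling. With library totals scaled by TMM factors the shares were 0.0679% to 0.123% in Neat1 null and 0.0904% to 0.225% in wild-type libraries, and the groups overlapped. Only 6 collagen genes reached 10 CPM in every library, namely Col18a1, Col4a1, Col4a2, Col4a5, Col5a1 and Col5a3. A further 13 stayed under 1 CPM in each of the 8 libraries, and 4 of them, Col13a1, Col6a4, Col6a5 and Col6a6, had no count at all. A count of 0 allows a level of up to 0.0662 to 0.269 CPM, depending on the library (3 counts, counting error only).

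Per kilobase of exon, the highest collagen levels belonged to Col18a1, Col4a1 and Col4a2. Col18a1, a proteoglycan of basement membranes and the source of the endostatin fragment, had 11.1 CPM per kb in Neat1 null and 83.5 CPM per kb in wild-type libraries. Col4a1 and Col4a2, the chains of the common type IV network, had 40.3 and 43.1 CPM per kb in Neat1 null and 30.3 and 29.7 CPM per kb in wild-type libraries. Together Col4a1 and Col4a2 made up 63.6 ± 3.59% of the summed collagen level per kb in Neat1 null and 31.4 ± 16.0% in wild-type libraries (SD, n = 4 each). Col18a1 made up 8.70 ± 2.23% in Neat1 null and 33.5 ± 13.7% in wild-type libraries. Wild-type library 1, with Col4a1 and Col4a2 at 50.2% and Col18a1 at 15.4%, lay nearest to the Neat1 null libraries. The fibrillar class as a whole took a like share in both, 15.5 ± 1.15% in Neat1 null and 15.5 ± 2.17% in wild-type libraries. These are shares of 1 total, so a fall of Col18a1 alone raises the other shares. Exon length is that of all annotated exons of a gene, which can exceed the transcript in use.

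**Figure D1:**
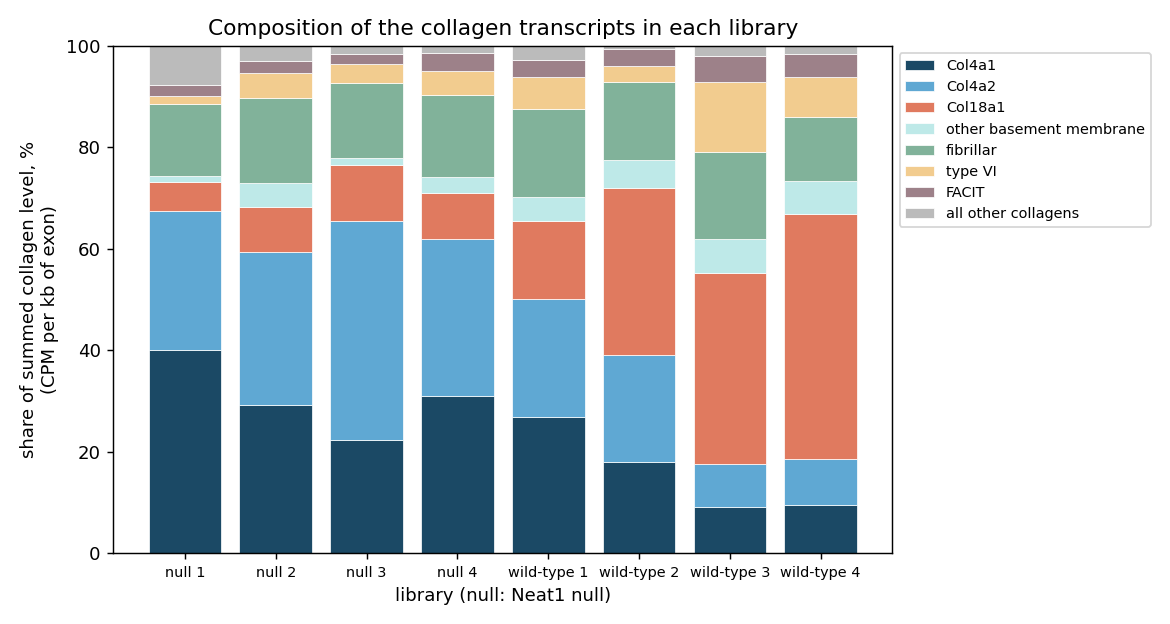
Each bar is 1 library and shows the share of the summed collagen level (CPM per kb of exon, in percent) taken by Col4a1, Col4a2, Col18a1 and groups of other collagens. Col4a1 and Col4a2 fill 59.5% to 67.5% of the Neat1 null bars and 17.6% to 50.2% of the wild-type bars, and Col18a1 fills 5.68% to 11.1% of the Neat1 null and 15.4% to 48.2% of the wild-type bars.

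Of the 44 genes, 28 had enough counts to be tested, and 9 of them were lower in Neat1 null libraries (adjusted p under 0.05, edgeR). That is 32.1% of those tested, where 7.72% of all 13316 genes tested were called lower. No collagen gene was called higher, where 9.97% of all genes were (17.7% in either direction). At an unadjusted p under 0.05, 15 collagens were lower and 0 higher. Of all 13316 genes tested, 4789 had such a p in either direction. DESeq2 called 14 of the 35 collagens it tested lower and 0 higher. It called 10.9% of all genes lower and 1944 of 14884 higher. The median log2 fold change (Neat1 null minus wild-type) was -1.49 over the collagens tested and -0.06 over all genes, and 24 of the 28 lay below 0. Of the 28, 6 passed the count filter in all wild-type but not in all Neat1 null libraries, among them the called genes Col20a1, Col22a1 and Col25a1, so the count and median over tested members are partly set by the filter. In 5 of the 28 the Neat1 null libraries all lay below the wild-type libraries, as for 11% of all genes tested. In 0 of the 28 they all lay above, as for 11.7% of all genes tested. The 9 calls all ended once any 1 of 3 libraries was left out. Their adjusted p-values were 0.0589 to 0.0946 once wild-type library 3 was removed, 0.0642 to 0.124 once wild-type library 4 was, and 0.0646 to 0.0990 once Neat1 null library 3 was (edgeR). In those 3 fits 18, 11 and 13 of all genes were called. The collagen medians were -0.937, -1.478 and -1.458 in the same order. The calls on the other genes named below ended as well, except that of Pdgfra without either wild-type library. Collagen genes are long, with a median of 7903 exon bases against 4462 over all genes tested. For the trend with length, log2 levels were first centred gene by gene, using both genotypes together. The slope of these centred values on log2 length was -0.477 to 0.007 in Neat1 null and 0.135 to 0.245 in wild-type libraries. Centring makes the slopes cancel out between libraries, so they compare libraries and do not give the direction of the trend within a genotype. With gene length and GC content fitted out of every library, 5 of the 9 stayed called, Col18a1, Col4a5, Col6a1, Col11a1 and Col16a1, and the collagen median was -1.27 against 0.085 over all genes. The same correction without Neat1 null library 1, added after the data were seen, called 7 collagens, 5 of them among the 9, with Col6a1 lost (adjusted p = 0.0560, edgeR) and Col11a1 at the threshold but not past it.

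**Figure D2:**
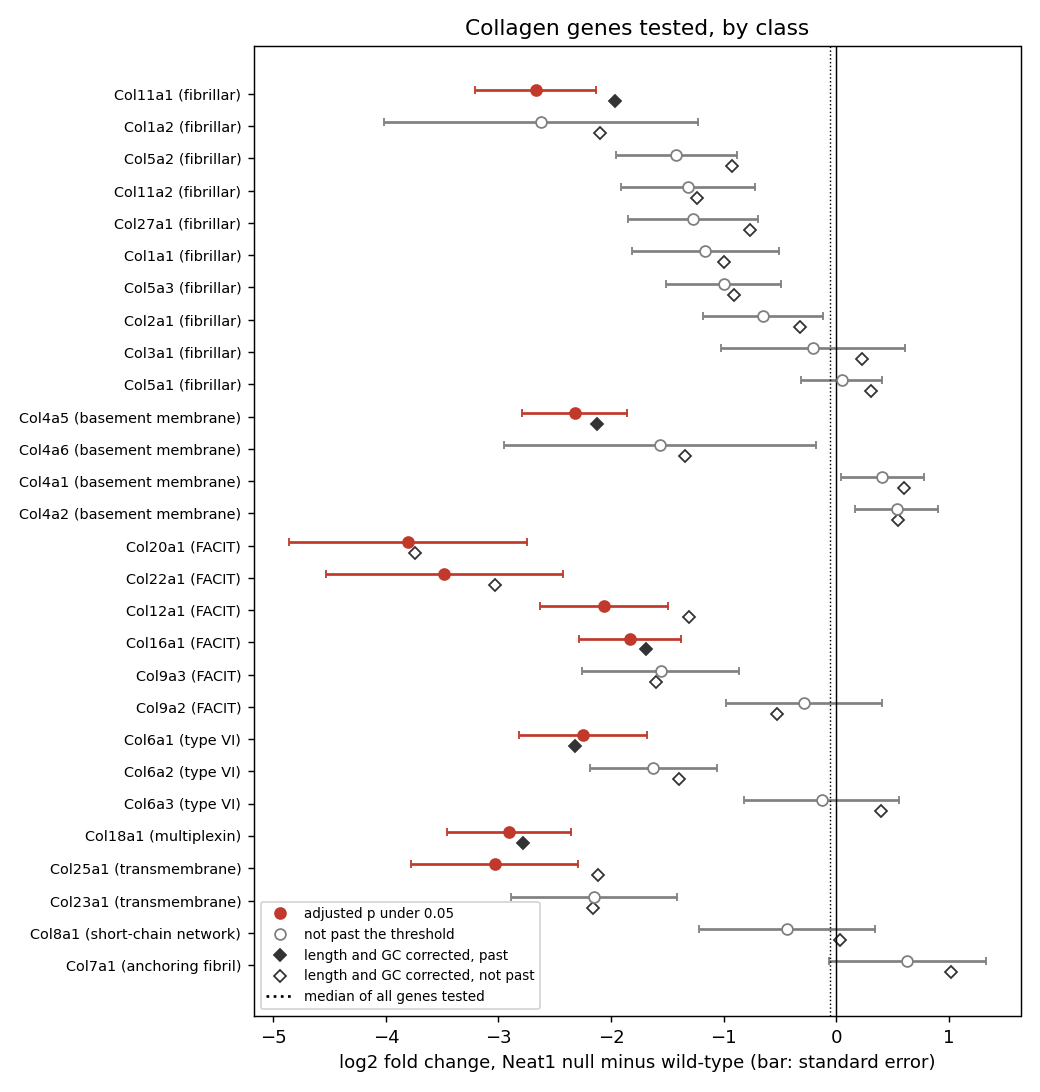
Each row is a collagen gene tested, ordered by class, with its log2 fold change (Neat1 null minus wild-type, circles, bar: standard error) and the value after length and GC correction (diamonds). Filled symbols passed the adjusted p of 0.05. The 9 filled circles lie between -3.80 and -1.83, and Col4a1, Col4a2, Col5a1 and Col7a1 lie above 0 without passing.

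Of the collagens found in basement membranes, the multiplexin Col18a1 and the type IV chain Col4a5 fell, and the main type IV chains did not pass the test. Col18a1 (chromosome 10, 77052178 to 77166548, minus strand, mm10) had 64.8, 59.1, 118 and 71.3 CPM in Neat1 null libraries 1 to 4, against 132, 416, 828 and 969 CPM in wild-type libraries 1 to 4. The groups did not overlap, but wild-type library 1 was close to Neat1 null library 3. Its difference of -2.91 on the log2 scale (SE 0.55) passed, with adjusted p = 0.0180 (edgeR). Leaving out any 1 library gave -3.22 to -2.55. Its wild-type levels followed the order of Neat1 over the 4 libraries, as did those of 4 other collagens tested and 7.24% of all genes tested.

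Col4a5 (chromosome X, 141475385 to 141689234, plus strand), a type IV chain whose human counterpart is mutated in X-linked Alport syndrome, had 11.9, 25.4, 10.1 and 19.1 CPM in Neat1 null libraries 1 to 4, against 29, 67.6, 113 and 124 CPM in wild-type libraries 1 to 4. The groups did not overlap, and the highest Neat1 null library was near the lowest wild-type library. Col4a5 differed by -2.32 on the log2 scale (SE 0.47), with adjusted p = 0.0180 (edgeR). The gene is X-linked, and no wild-type library was male, so sex and genotype are largely confounded for it. Neat1 null library 3, the only female one of its group, had 10.1 CPM, against 29 to 124 CPM in the female wild-type libraries. The part of sex was not tested. Col4a6, its X-linked neighbour on the opposite strand, starts 1308 bases away. It had 1.08, 4.28, 3.10 and 6.81 CPM in Neat1 null libraries 1 to 4, against 11.0, 0.177, 34.2 and 0.365 CPM in wild-type libraries 1 to 4. Wild-type libraries 1 and 3 were above and wild-type libraries 2 and 4 below all Neat1 null libraries, and the fold change of -1.57 (SE 1.38) did not pass (adjusted p = 0.445, edgeR). Per kb, the ratio of Col4a6 to Col4a5 was 0.0766 to 0.300 in Neat1 null libraries, against 0.0022 to 0.319 in wild-type libraries.

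Col4a1 and Col4a2 lie head to head on chromosome 8, and 22 exon bases of theirs overlap on opposite strands. Col4a1 had 486, 205, 253 and 260 CPM in Neat1 null libraries 1 to 4, against 246, 243, 213 and 204 CPM in wild-type libraries 1 to 4. Its log2 fold change of 0.41 (SE 0.37) did not pass (adjusted p = 0.438, edgeR). Col4a2 had 294, 188, 431 and 229 CPM in Neat1 null libraries 1 to 4, against 190, 250, 175 and 172 CPM in wild-type libraries 1 to 4, and likewise did not pass (0.54, SE 0.37, adjusted p = 0.302). The groups overlapped for both genes, and the wild-type libraries were close together. The ratio of Col4a2 to Col4a1 per kb was 0.683, 1.03, 1.92 and 0.994 in Neat1 null libraries, against 0.871, 1.16, 0.930 and 0.950 in wild-type libraries, so it departed from about 1 in Neat1 null libraries 1 and 3. Col4a5 relative to Col4a1 per kb was 0.0271 to 0.138 in Neat1 null and 0.131 to 0.673 in wild-type libraries. Col4a3 and Col4a4, the chains of mature kidney basement membrane, also lie head to head, with 71 bases between them, and were too low to test in the main fit. They had at most 4 and 5 counts in a Neat1 null library and at most 33 and 70 in a wild-type library. DESeq2 called both lower, and edgeR called Col4a3 lower without wild-type library 2. With no count filter neither passed (adjusted p = 0.0678 and 0.0786, edgeR). Col15a1, the other multiplexin beside Col18a1, had at most 2 counts in a Neat1 null and 10 in a wild-type library.

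**Figure D3:**
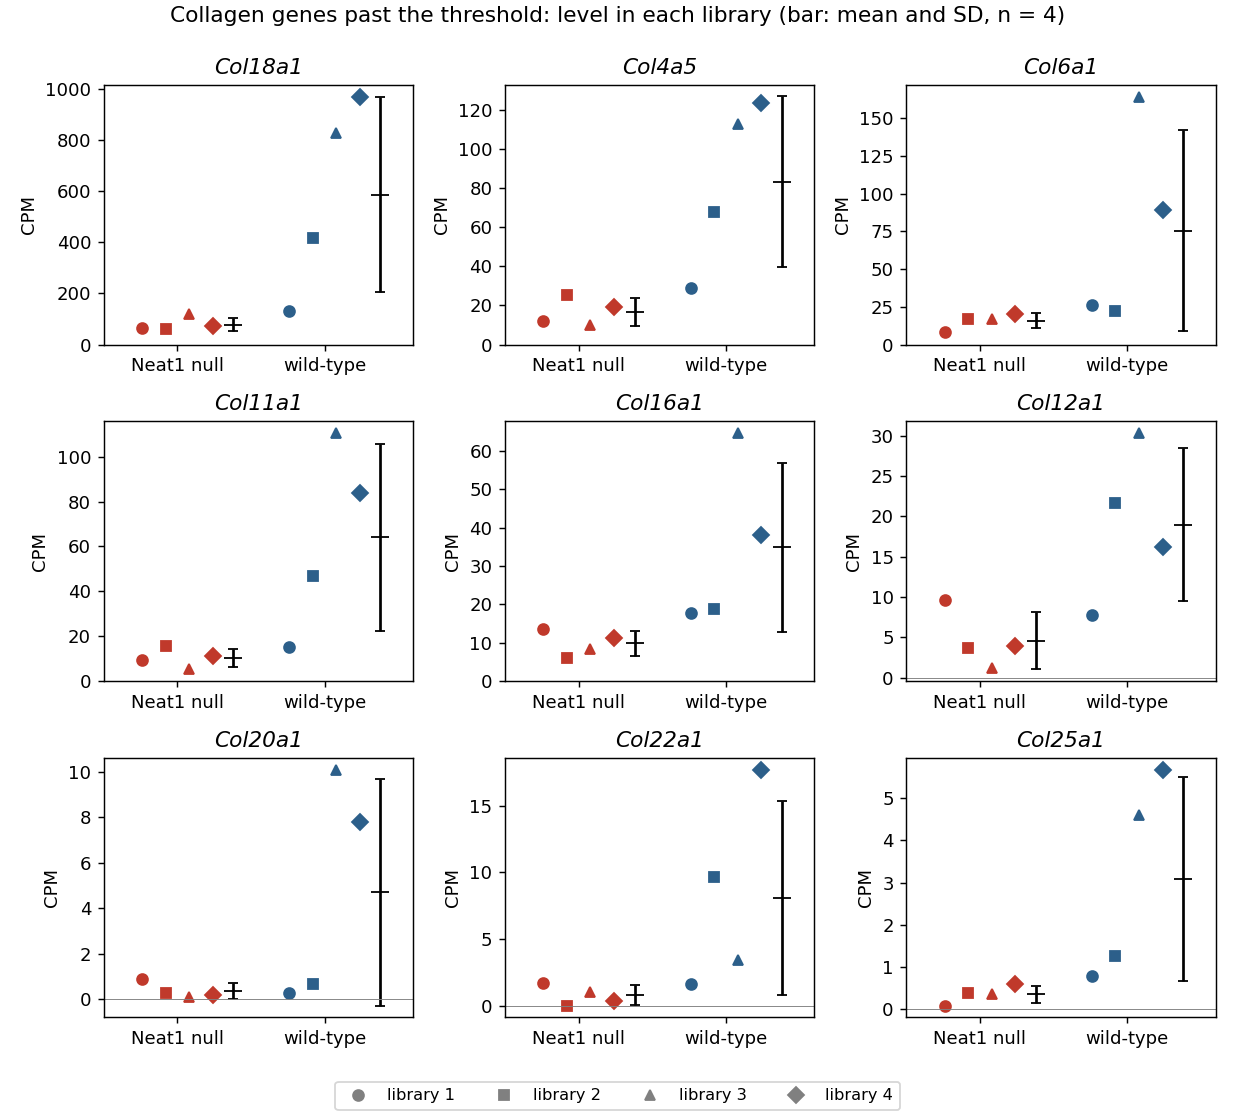
Each panel shows 1 of the 9 collagen genes past the threshold, with the level in CPM (linear axis) of each library and the group mean and SD beside it. Neat1 null libraries are on the left and wild-type libraries on the right. Wild-type library 3 or 4 is the highest in each panel, and wild-type library 1 is close to the Neat1 null libraries in most.

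Among fibrillar collagens, Col11a1 was the 1 of 10 tested that fell, near the 7.72% of all genes called lower. Col11a1 (chromosome 3, 114030540 to 114220718, plus strand), a minor chain of cartilage fibrils, had 9.16, 15.2, 5.08 and 10.8 CPM in Neat1 null libraries 1 to 4, against 14.8, 46.9, 111 and 83.8 CPM in wild-type libraries 1 to 4. Only Neat1 null library 2 and wild-type library 1 crossed. On the log2 scale the difference was -2.67 (SE 0.54), with adjusted p = 0.0180 (edgeR), and -1.96 after the length and GC correction. Its partner chain Col11a2 had 0.470 to 1.08 CPM in Neat1 null and 0.795 to 2.87 CPM in wild-type libraries and did not pass (log2 fold change -1.32, SE 0.59, adjusted p = 0.123, edgeR).

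Type V chains co-assemble with type I collagen and nucleate its fibrils. Col5a1 had 128, 57.8, 98.8 and 69.3 CPM in Neat1 null libraries 1 to 4, against 70.2, 68.3, 124 and 78.8 CPM in wild-type libraries 1 to 4. The groups covered the same range, and the log2 fold change of 0.05 (SE 0.36, adjusted p = 0.935, edgeR) turned to -0.18 with upper-quartile scaling. Col5a2 had 34.2, 11.1, 4.23 and 13.0 CPM in Neat1 null libraries 1 to 4, against 62.2, 20.4, 51.6 and 32.3 CPM in wild-type libraries 1 to 4. Only Neat1 null library 1 reached into the wild-type range, and the fold change of -1.42 (SE 0.54) did not pass (adjusted p = 0.0754, edgeR). The ratio of Col5a2 to Col5a1 per kb was 0.0379 to 0.238 in Neat1 null and 0.264 to 0.785 in wild-type libraries, without overlap. Col5a3 had 10.8, 35.8, 59.5 and 40.3 CPM in Neat1 null libraries 1 to 4, against 21.2, 83.8, 91.8 and 96.7 CPM in wild-type libraries 1 to 4. Wild-type library 1 lay within the Neat1 null range, and the gene did not pass (log2 fold change -1.0, SE 0.51, adjusted p = 0.171, edgeR).

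The classical fibroblast collagens were low in both groups, except Col1a2 in wild-type library 3. They are described for that reason, chosen after their values were seen. Col1a1 and Col1a2, the chains of type I collagen, and Col3a1, that of type III, together made up 0.744 ± 0.378% of the summed collagen level per kb in Neat1 null and 1.14 ± 1.17% in wild-type libraries (SD, n = 4 each). Col1a1 had 5.75, 1.29, 1.41 and 1.54 CPM in Neat1 null libraries 1 to 4, against 3.37, 2.98, 12.4 and 3.09 CPM in wild-type libraries 1 to 4. Col1a2 had 1.08, 3.81, 0.741 and 8.38 CPM in Neat1 null libraries 1 to 4, against 5.86, 1.72, 77.1 and 2.68 CPM in wild-type libraries 1 to 4. Col3a1 had 7.82, 2.46, 0.353 and 0.784 CPM in Neat1 null libraries 1 to 4, against 2.97, 1.17, 7.04 and 1.70 CPM in wild-type libraries 1 to 4. Neat1 null library 1 and wild-type library 3 were the high libraries for Col1a1 and Col3a1, and the groups overlapped for all 3. Adjusted p-values were 0.208, 0.214 and 0.870 (edgeR). The fold change of Col1a2 rested on wild-type library 3, at -2.62 (SE 1.40) with it and 0.047 without it. Col2a1, the main cartilage fibril chain, had 2.61 to 5.90 CPM in Neat1 null and 2.21 to 12 CPM in wild-type libraries (adjusted p = 0.392). Col27a1 stayed at or below 1.08 CPM in Neat1 null and 4.31 CPM in wild-type libraries (adjusted p = 0.128).

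Col24a1, a minor fibrillar collagen known from forming bone, was too low to test and is named after its values were seen. It had 0, 3, 1 and 1 counts in Neat1 null libraries 1 to 4, against 23, 8, 185 and 125 counts in wild-type libraries 1 to 4, and the groups did not overlap in CPM. With no count filter it differed by -5.33 on the log2 scale (SE 1.01), with adjusted p = 0.00508 (edgeR), a value that depends on the prior count.

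**Figure D4:**
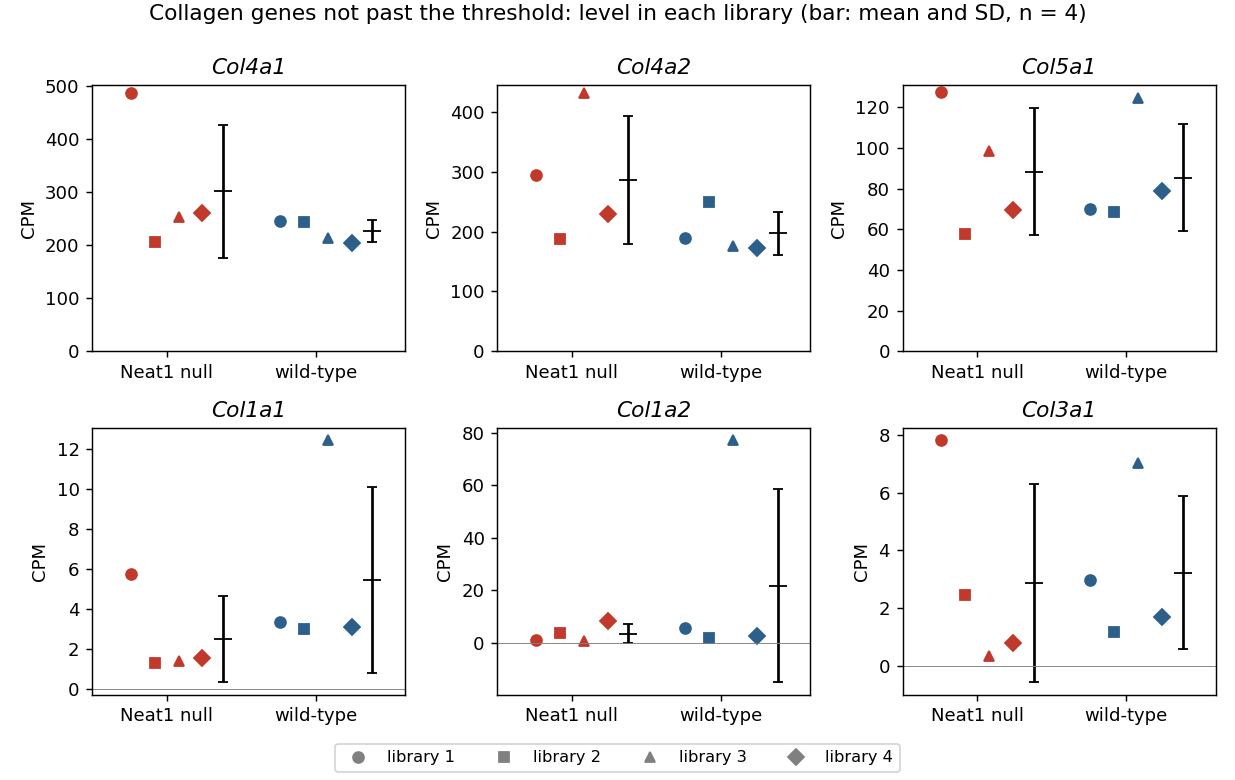
Each panel shows a collagen gene that did not pass the threshold, with the level in CPM (linear axis) of each library and the group mean and SD beside it. Neat1 null libraries are on the left and wild-type libraries on the right. Col4a1 reaches 486 CPM and Col4a2 431 CPM in 1 Neat1 null library each, and Col1a2 stands at 77.1 CPM in wild-type library 3.

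FACIT collagens held 4 of the 9 falls, among 6 tested of 9 in the tables. That is 66.7% of those tested, where 7.72% of all genes were called lower. Of these 4, Col20a1 and Col22a1 passed the count filter in only 2 and 3 Neat1 null libraries. Only Col16a1 of the 4 stayed called after the length and GC correction. Col16a1 (chromosome 4, 130047840 to 130099283, plus strand), a minor FACIT of fibroblasts and smooth muscle, had 13.6, 6.07, 8.32 and 11.3 CPM in Neat1 null libraries 1 to 4, against 17.8, 18.9, 64.8 and 38.1 CPM in wild-type libraries 1 to 4. The groups did not overlap, and the difference was -1.83 on the log2 scale (SE 0.46), with adjusted p = 0.0205 (edgeR). Col12a1 (chromosome 9, 79598991 to 79718831, minus strand), which binds type I fibrils, had 9.61, 3.67, 1.27 and 3.89 CPM in Neat1 null libraries 1 to 4, against 7.79, 21.6, 30.3 and 16.2 CPM in wild-type libraries 1 to 4. Neat1 null library 1 lay above wild-type library 1. Col12a1 differed by -2.06 on the log2 scale (SE 0.57), with adjusted p = 0.0266 (edgeR), and by -1.31 after the length and GC correction, where it no longer passed (adjusted p = 0.104, edgeR).

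Col22a1 (chromosome 15, 71795795 to 72034227, minus strand), found at tissue junctions such as those of muscle and tendon, had 1.71, 0, 1.02 and 0.345 CPM in Neat1 null libraries 1 to 4, against 1.62, 9.63, 3.38 and 17.7 CPM in wild-type libraries 1 to 4. Wild-type library 1 lay within the Neat1 null range. Its difference was -3.48 on the log2 scale (SE 1.05), with adjusted p = 0.0396 (edgeR), and it was called in 3 of 8 fits that left out 1 library. Col20a1 (chromosome 2, 180986535 to 181018363, plus strand) had 0.898, 0.293, 0.106 and 0.188 CPM in Neat1 null libraries 1 to 4, against 0.292, 0.663, 10.1 and 7.76 CPM in wild-type libraries 1 to 4. Its difference was carried by wild-type libraries 3 and 4, and the other wild-type libraries lay within the Neat1 null range. It came to -3.80 on the log2 scale (SE 1.06), with adjusted p = 0.0286 (edgeR), and it too was called in 3 of 8 fits that left out 1 library. After the length and GC correction Col22a1 (-3.03, adjusted p = 0.0736) and Col20a1 (-3.74, adjusted p = 0.0515) no longer passed. Col20a1 shares 79 exon bases with BX649560.1 on its own strand and Col22a1 shares 16 with Gm16308 on the other, so some of their reads may be split or shared.

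The cartilage FACIT chains Col9a2 and Col9a3 did not pass, with log2 fold changes of -0.29 (SE 0.69) and -1.56 (SE 0.70) and adjusted p = 0.786 and 0.122 (edgeR). Col9a2 had 0.719, 3.11, 4.59 and 5.71 CPM in Neat1 null libraries 1 to 4, against 1.33, 1.24, 6.95 and 7.91 CPM in wild-type libraries 1 to 4, and the groups overlapped. Col9a3 had 0.106 to 0.808 CPM in Neat1 null and 0.442 to 1.54 CPM in wild-type libraries. Col9a1, Col14a1 and Col19a1 had at most 6 counts in a Neat1 null library and at most 11 in a wild-type library and were not tested.

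Type VI collagen is assembled from Col6a1, Col6a2 and another chain, mostly Col6a3. Col6a1 (chromosome 10, 76708792 to 76726168, minus strand) had 8.53, 17.1, 17.2 and 20.4 CPM in Neat1 null libraries 1 to 4, against 26.1, 22.6, 164 and 89.2 CPM in wild-type libraries 1 to 4. The groups did not overlap, though wild-type libraries 1 and 2 were close to the Neat1 null libraries. Col6a1 differed by -2.25 on the log2 scale (SE 0.57), with adjusted p = 0.0217 (edgeR), and by -1.54 without wild-type library 3. Col6a2, its neighbour on chromosome 10, had 4.49, 3.87, 14.0 and 5.43 CPM in Neat1 null libraries 1 to 4, against 13.8, 6.58, 44.2 and 21.4 CPM in wild-type libraries 1 to 4. Neat1 null library 3 reached into the wild-type range, and the fold change of -1.62 (SE 0.57) did not pass (adjusted p = 0.0580, edgeR). Col6a3 had 0.719, 1.67, 0.423 and 0.126 CPM in Neat1 null libraries 1 to 4, against 0.689, 0.884, 1.09 and 0.560 CPM in wild-type libraries 1 to 4, and did not pass (log2 fold change -0.13, SE 0.69, adjusted p = 0.905). Per kb, Col6a2 stood at 0.119 to 0.429 times Col6a1 in Neat1 null libraries and at 0.127 to 0.278 times in wild-type libraries.

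Of the transmembrane collagens, Col25a1 (chromosome 3, 130131501 to 130599877, plus strand), a collagen of neurons whose shed form occurs in human amyloid plaques, fell. It had 0.0898, 0.381, 0.353 and 0.596 CPM in Neat1 null libraries 1 to 4, against 0.795, 1.26, 4.59 and 5.67 CPM in wild-type libraries 1 to 4. The groups did not overlap, at a low level in both. Col25a1 differed by -3.03 on the log2 scale (SE 0.74), with adjusted p = 0.02 (edgeR), and by -2.12 after the length and GC correction, where it no longer passed (adjusted p = 0.0675). Col23a1 had 0.180, 0.205, 0.459 and 0.220 CPM in Neat1 null libraries 1 to 4, against 0.239, 0.663, 2.52 and 1.46 CPM in wild-type libraries 1 to 4. Wild-type library 1 lay within the Neat1 null range, and the gene did not pass (-2.16, SE 0.74, adjusted p = 0.0545, edgeR). Col17a1, of epithelial hemidesmosomes, had at most 5 counts in a Neat1 null library and 13 in a wild-type library. Col7a1, which forms the anchoring fibrils of skin, had 124, 26.5, 22.8 and 12.3 CPM in Neat1 null libraries 1 to 4, against 34.7, 7.18, 45.6 and 31.7 CPM in wild-type libraries 1 to 4. Its log2 fold change of 0.63 (SE 0.69, adjusted p = 0.537, edgeR) was -0.54 without Neat1 null library 1. The short-chain network collagen Col8a1 had 1.44, 0.763, 0.0706 and 0.659 CPM in Neat1 null libraries 1 to 4, against 0.212, 0.729, 0.932 and 1.95 CPM in wild-type libraries 1 to 4. The groups overlapped, and it did not pass (-0.44, SE 0.78, adjusted p = 0.710), and Col8a2, Col10a1, Col26a1 and Col28a1 were too low to test.

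Genes that make, process and bind collagen were read beside the chains, from lists of known members. Of 32 listed synthesis and processing genes with counts, 28 were tested, and of these 3 were called higher in Neat1 null libraries and 5 were called lower. Their median was 0.015 on the log2 scale. Together 28.6% were called, where 17.7% of all genes were, and the share called higher was near the 9.97% of all genes. The lower ones were Tll1, Adamts3 and Adamts14, proteases of procollagen processing, the prolyl hydroxylase subunit P4ha3 and the crosslinking oxidase Loxl4. Tll1 had 0.449, 1.35, 0.353 and 2.26 CPM in Neat1 null libraries 1 to 4, against 6.50, 3.98, 8.74 and 6.18 CPM in wild-type libraries 1 to 4 (log2 fold change -2.49, SE 0.61, adjusted p = 0.02, edgeR). P4ha3, Adamts3 and Adamts14 had log2 fold changes of -2.36 (SE 0.59), -2.37 (SE 0.60) and -1.38 (SE 0.39). The higher ones were the endoplasmic reticulum isomerases Ppib (log2 fold change 1.26, SE 0.39, adjusted p = 0.0394) and Fkbp10 (1.33, SE 0.44, adjusted p = 0.0493), and the procollagen protease enhancer Pcolce2 (0.99, SE 0.31, adjusted p = 0.0394). These 3 genes and Loxl4 are named after their values were seen.

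Of other enzymes and chaperones of the pathway, named after their values were seen, P4hb and Serpinh1 did not pass and Lox was too low to test. P4ha1, P4ha2, Plod1, Plod2 and Mia3 did not pass either, with log2 fold changes of -0.78 to 0.06. P4hb, the beta subunit of prolyl hydroxylase, averaged 1201 ± 485 CPM in Neat1 null and 560 ± 28.1 CPM in wild-type libraries, without overlap (adjusted p = 0.0701, edgeR). Serpinh1, the collagen chaperone HSP47, averaged 340 ± 130 CPM in Neat1 null and 174 ± 39.7 CPM in wild-type libraries (adjusted p = 0.0816, edgeR). Lox, the main collagen crosslinking oxidase, was at most 0.251 CPM in Neat1 null and 1.44 CPM in wild-type libraries. With upper-quartile scaling 0 synthesis genes were called higher and 7 lower, so the rises of Ppib, Fkbp10 and Pcolce2 depend on the scaling.

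Among 9 tested receptors and uptake genes, 0 were higher and 2 lower, with a median log2 fold change of -0.77. That is 22.2% called, where 17.7% of all genes were called in either direction and 7.72% were called lower. Both called genes encode alpha chains of collagen-binding integrins. Itga1 had 1.17, 2.08, 1.16 and 1.51 CPM in Neat1 null libraries 1 to 4, against 2.12, 7.76, 17.1 and 18.1 CPM in wild-type libraries 1 to 4 (log2 fold change -2.92, SE 0.61, adjusted p = 0.0180, edgeR). After the length and GC correction Itga1 had -1.76 and no longer passed (adjusted p = 0.0609, edgeR). Itga2 averaged 0.162 ± 0.0924 CPM in Neat1 null and 1.41 ± 1.17 CPM in wild-type libraries (-3.02, SE 0.79, adjusted p = 0.0233, edgeR). Ddr2, a receptor kinase for fibrillar collagen, averaged 124 ± 34.9 CPM in Neat1 null and 211 ± 36.0 CPM in wild-type libraries and did not pass (adjusted p = 0.126, edgeR). None of the 9 tested fibril-binding matrix genes was called in either direction by edgeR, and 1 had an unadjusted p under 0.05. Of 21 tested transcription factors known to act on collagen genes, Nfyc, a subunit of the factor that binds the CCAAT box, was higher (1.24, SE 0.40, adjusted p = 0.0439) and Sox5 lower (-3.19, SE 0.85, adjusted p = 0.0240). These 2 of 21 are 9.52%, below the 17.7% of all genes called. Neither passed after the length and GC correction (Nfyc adjusted p = 0.0588, Sox5 -2.06 with adjusted p = 0.126, edgeR), nor did Nfyc with upper-quartile scaling (adjusted p = 0.0511).

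Markers of other cell types moved beside some of these genes, and their part in the results was not tested. The 8 endothelial markers summed to 0.359 to 2.60 CPM in Neat1 null and 5.36 to 44.7 CPM in wild-type libraries, and 0 of the 2 tested were called, with 1 at an unadjusted p under 0.05. Most of the sum in wild-type libraries 1 and 3 was Emcn (16.7 and 39.7 CPM), which was at most 0.0314 CPM in any Neat1 null and 0.0221 CPM in wild-type libraries 2 and 4. The 8 osteoblast markers summed to 12 to 27.4 CPM in Neat1 null and 34.4 to 38.3 CPM in wild-type libraries, mostly Runx2, with Bglap2 and Ibsp at 0. The 8 chondrocyte markers summed to 51.1 to 84.6 CPM in Neat1 null and 71.0 to 109 CPM in wild-type libraries, mostly Sox9, with Matn1 at 0. The 10 fibroblast markers summed to 2070 to 3400 CPM in Neat1 null and 1430 to 2620 CPM in wild-type libraries, mostly Vim. Among them Pdgfra, a receptor of mesenchymal cells, fell, with 10.9, 8.36, 3.92 and 6.87 CPM in Neat1 null libraries 1 to 4, against 41.2, 40.9, 148 and 129 CPM in wild-type libraries 1 to 4 (log2 fold change -3.59, SE 0.52, adjusted p = 0.00806, edgeR), and S100a4 rose (2.08, SE 0.68, adjusted p = 0.0473). Without Neat1 null library 1, S100a4 had 0.61 (adjusted p = 0.353, edgeR). The 8 epithelial markers summed to 253 to 3230 CPM in Neat1 null and 212 to 689 CPM in wild-type libraries, mostly Krt18, with Krt14 at 0. Krt18 had 3144 CPM in Neat1 null library 1 and 179 to 865 CPM in the other Neat1 null libraries. The 7 smooth muscle markers summed to 164 to 456 CPM in Neat1 null and 168 to 235 CPM in wild-type libraries. Acta2 and Tagln had 123 and 107 CPM in Neat1 null library 1. They had at most 1.57 and 5.68 CPM in the other Neat1 null libraries. The 8 neural markers, with Dcx at 0, summed to 77.6 to 564 CPM in Neat1 null and 209 to 346 CPM in wild-type libraries. Nes had 556 CPM in Neat1 null library 1 and 65.3 to 239 CPM in the other Neat1 null libraries. The 7 leukocyte markers, with Ptprc and Cd3e at 0, summed to 4.13 to 18.7 CPM in Neat1 null and 9.36 to 102 CPM in wild-type libraries. Map2 (-1.39, adjusted p = 0.0439) was the neural and Cd68 (-2.47, adjusted p = 0.0239) the leukocyte marker called, both lower (edgeR). Map2 was called in 2 of 8 fits that left out 1 library and had -0.58 after the length and GC correction (adjusted p = 0.279, edgeR).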

How the data were processed

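RNA-seq libraries of total RNA were made with a stranded TruSeq kit, per the labels. For each of 8 libraries the deposited table holds read counts by gene symbol, not normalized. The submitters' processing notes name CASAVA 1.8, STAR, DESeq2 and mm10. The read counter and its strand setting are not given in the sources used here. Reads outside genes (5.48% to 15.7% of deposited counts) and ambiguous reads were left out. The collagen genes and the lists were chosen with earlier results of these data known.

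Genes were kept with filterByExpr (minimum count 10) of edgeR 4.0.16 in R 4.3.3, scaled with TMM factors and tested with the 2-sided quasi-likelihood F test (robust, genotype only), with Benjamini-Hochberg adjustment over 13316 genes and a threshold of 0.05. The SE is the size of the log2 fold change divided by the square root of F. The fit was also run on counts simulated from its own model. That simulation held no outlying library, length trend or sex difference, so it cannot show how these affect the calls. Gene positions, exon lengths and GC contents are from GENCODE M21 (GRCm38, that is mm10), where 98.4% of symbols matched. No 2 libraries of a genotype agreed within sampling noise (smallest chi-square over its degrees of freedom 62.1). Values in every library are given for called collagens, for those tested among the highest per kb of each class (4 in the main classes, 2 in others) and for X-linked ones; of the other lists, up to 4 called members by smallest p are named.

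Alternatives were RLE and upper-quartile factors, other filters, DESeq2 1.42.0, the robust option switched off, omission of each library, omission of Neat1 null libraries 1 and 3, the replicate block, an adjusted p of 0.01, and the length and GC correction (splines with 5 degrees of freedom, as offsets). That correction without Neat1 null library 1 was added after the data were seen.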

Additional observations from a re-analysis of the deposited data

Results flagged for a closer look

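Among 58 groups of 4 libraries examined (28 collagen genes and the collagen share, in each genotype), 7 held a library far from the other 3, where the gap to the nearest library was more than 0.829 of the range. Chance alone flags about 1 in 20 such groups if values are independent and normally distributed. CPM values of genes in the same libraries need not be, so the 7 cannot be set against that rate. Wild-type library 3 was high for Col1a2 (77.1 CPM, the next library 5.86 CPM) and for Col1a1 (12.4 and 3.37 CPM). Neat1 null library 1 was high for Col1a1 (5.75 and 1.54 CPM) and for Col7a1 (124 and 26.5 CPM). Neat1 null library 3 was high for Col6a2 (14.0 and 5.43 CPM) and for Col23a1 (0.459 and 0.220 CPM). Wild-type library 1 was low for Col5a3 (21.2 and 83.8 CPM).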

How the results depend on the processing

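The number of collagens called lower was 9 to 12 with RLE or upper-quartile factors, no filter or no robust option, and 7 with at least 1 CPM in 4 libraries. It was 5 with the length and GC correction, 14 of 35 with DESeq2, and 0 at an adjusted p of 0.01 (15 at an unadjusted p under 0.05) or without Neat1 null libraries 1 and 3 (18 at an unadjusted p under 0.05). With 1 library left out it was 0 to 11, synthesis genes called were 0 to 9 and all genes called 11 to 2965. The fits with 0 collagens called omitted wild-type library 3, wild-type library 4 and Neat1 null library 3 in turn and had 10, 12 and 16 lower at an unadjusted p under 0.05. The share of all genes at that unadjusted p was not counted for the fits that left out libraries. Synthesis genes called were 13 with DESeq2, 4 with the length and GC correction without Neat1 null library 1, 0 at an adjusted p of 0.01 and 0 without Neat1 null libraries 1 and 3. All genes called were 3559, 1204, 7 and 7 in the same order. Without Neat1 null libraries 1 and 3, Neat1 had -6.34 (adjusted p = 0.0899, edgeR). The mean collagen share without ribosomal protein genes and Rn45s was 0.0901% in Neat1 null and 0.220% in wild-type libraries, and with TMM totals 0.0942% in Neat1 null and 0.162% in wild-type libraries. Leaving out 1 library gave medians of -1.96 to -0.94.

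Signs were followed for Neat1, the collagens tested and up to 4 called members of each other list, and none of these that was called changed sign. Loxl4, Ppib, Fkbp10 and Pcolce2 were not followed. Of genes not called, Col5a1 had -0.18 with upper-quartile factors. With the length and GC correction Col3a1 had 0.23, Col6a3 0.39 and Col8a1 0.03. Without Neat1 null libraries 1 and 3, Col6a3 had 0.165, Col5a1 -0.44 and Col7a1 -0.62, and with the correction and without Neat1 null library 1, Col6a3 had 0.41 and Col7a1 -0.16. With 1 library left out, ranges were -0.19 to 0.28 for Col5a1, -1.41 to 0.52 for Col3a1, -1.0 to 0.24 for Col6a3, -0.63 to 0.17 for Col9a2, -3.51 to 0.047 for Col1a2, -2.0 to 0.005 for Col4a6, -0.93 to 0.17 for Col8a1 and -0.54 to 0.96 for Col7a1. The causes were not tested.

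Replicate numbers did not pair the libraries: same-numbered libraries had correlations of deviations of 0.317, -0.258, -0.014 and 0.107. With the replicate block 9 collagens were lower, 7 of them among those reported, 8 with the block and the correction, and Col4a6 had 0.38 and 0.62 in these fits. Low counts limit Col20a1, Col22a1 and Col25a1 and leave 16 collagens untested.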

Other observations

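Wild-type libraries were not alike in their collagens. Wild-type library 3 held the highest wild-type level of 18 of the 28 collagens tested, where it was highest for 18.8% of all genes tested, and wild-type library 4 that of 7, against 17.5%. The lowest wild-type level was in wild-type library 2 for 14 and in wild-type library 1 for 11 of the 28. Neat1 null library 1 held the highest Neat1 null level of 14 of the 28, against 29.6% of all genes. The range within the wild-type group was 194-fold for Col4a6, 44.8-fold for Col1a2 and 34.6-fold for Col20a1, against 1.21-fold for Col4a1 and 1.45-fold for Col4a2. Within the Neat1 null group it was 6.32-fold for Col4a6, 11.3-fold for Col1a2, 8.49-fold for Col20a1, 2.37-fold for Col4a1 and 2.29-fold for Col4a2.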
